A study of Rattus norvegicus with 6 samples.

Results

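The let-7 and miR-98 passenger strands are the minor products of the let-7 hairpins, and 10 of the 649 miRNAs listed for these neurons belong to them: rno-let-7a-1-3p, rno-let-7b-3p, rno-let-7c-1-3p, rno-let-7c-2-3p, rno-let-7d-3p, rno-let-7e-3p, rno-let-7f-1-3p, rno-let-7f-2-3p, rno-let-7i-3p and rno-miR-98-3p, written below without the prefix for rat. They were chosen by name, with their read counts already in view: their levels, the reads shared between copies and the BDNF to control ratios of equally numbered replicates. Those values are therefore described here and support nothing. Small RNA was sequenced from primary cortical neurons of embryonic day 18 Sprague-Dawley rats, grown to 7 days in vitro per the labels, while one figure legend of the study gives 6. The 3 BDNF samples received brain-derived neurotrophic factor, a neurotrophin that promotes dendrite growth, at 100 ng/ml for 20 min, and the 3 control samples received vehicle with 0.1% bovine serum albumin for the same time. Embryos of both sexes were used, and per the study's culture methods all cortical cultures also received fluorodeoxyuridine with uridine, which stops dividing cells. Control and BDNF samples carry replicate numbers 1 to 3, and the study describes them as biological replicates and, in figure legends, as 3 independent experiments. It does not state whether equal numbers mark the same experiment.

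A let-7 hairpin is cut by Drosha and then by Dicer into a short duplex. The strand from the 5′ side (5p), called the guide, is usually loaded into an Argonaute protein and directs the repression of messenger RNAs, while the strand from the 3′ side (3p), the passenger, is mostly released and degraded. The let-7 guides accumulate as neurons mature, and the RNA-binding proteins Lin28a and Lin28b hold back their processing in immature cells. Bases 2 to 8 of a strand, its seed, pair with a target messenger RNA.

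The libraries held 10374120 to 12533029 reads assigned to miRNAs. Levels are given as RPM, counts scaled by each library's own total, and the trimmed mean of M-values (TMM) factors used for normalized RPM ran from 0.928 to 1.08. As a check of the labelled cell type, miRNAs typical of neurons (miR-9a-5p, miR-124-3p, miR-128-3p and miR-138-5p) summed to 334964 to 392398 RPM in control and 376521 to 411930 RPM in BDNF samples. Most of this sum was miR-9a-5p, at 249572 to 331060 RPM over all libraries. miR-128-3p stood at 75697 to 88885 RPM, miR-124-3p at 4785 to 5879 RPM and miR-138-5p at 228 to 424 RPM. The miRNAs typical of glia, mostly miR-21-5p (5571 to 7480 RPM), summed to 5617 to 7331 and 5652 to 7529 RPM. By itself miR-124-3p was thus not above miR-21-5p in range. The 4 of 5 microglial and blood miRNAs that were listed summed to 4.11 to 9.22 RPM, with miR-223-3p not listed. The vascular list of 3 summed to 124 to 183 RPM in control and 117 to 178 RPM in BDNF samples. Levels per cell and the number of contributing cells cannot be told apart in such bulk libraries.

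The mature sequences are shown because both the seed groups and the shared reads follow from them. A RefSeq-derived table (build GRCr8) held a mature strand for 9 of the 10 names, all but let-7c-1-3p. Each is written 5′ to 3′ with its seed in capitals.
let-7a-1-3p: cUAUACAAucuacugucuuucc
let-7c-2-3p: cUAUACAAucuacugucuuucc
let-7b-3p: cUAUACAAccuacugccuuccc
let-7f-1-3p: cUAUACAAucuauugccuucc
miR-98-3p: cUAUACAAcuuacuacuuucc
let-7f-2-3p: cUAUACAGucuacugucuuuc
let-7d-3p: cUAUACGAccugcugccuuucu
let-7e-3p: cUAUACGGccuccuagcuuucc
let-7i-3p: cUGCGCAAgcuacugccuugcu
For comparison, the guides of the most abundant passenger and of the shared rows, again with the seed in capitals, are as follows.
let-7d-5p: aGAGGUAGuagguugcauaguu
let-7a-5p: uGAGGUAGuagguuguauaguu
let-7c-5p: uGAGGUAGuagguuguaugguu

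The passengers are less alike in the seed than their guides. All 8 guides carry the seed GAGGUAG, whereas the 9 passenger sequences fall into 5 seeds. Of these, UAUACAA is shared by 5 strands, let-7a-1-3p, let-7b-3p, let-7c-2-3p, let-7f-1-3p and miR-98-3p, and by no other of the 583 listed miRNAs with a sequence in the table. The other 4 seeds, UAUACAG of let-7f-2-3p, UAUACGA of let-7d-3p, UAUACGG of let-7e-3p and UGCGCAA of let-7i-3p, each occurred in that strand alone. All 9 passengers begin with C, as do 72 of the 268 listed 3p strands with a sequence (26.9%). The guides begin with U except let-7d-5p, which begins with A.

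Among the 36 pairs of passenger sequences, 3 lie within 1 mismatch and 9 within 3. The strands of let-7a-1-3p and let-7c-2-3p are identical over all 22 bases. From them let-7f-2-3p differs by the single substitution A8G, counted from 1 at the 5′ end with the base of let-7a-1-3p first, and it ends 1 base earlier. Reads were assigned by the authors with up to 1 mismatch, so this pair sits at the edge of what that step can separate. The next nearest are let-7b-3p and let-7f-1-3p, at 2 mismatches (C9U and C13U from let-7b-3p). At the other end let-7i-3p, whose seed does not begin with UAUAC, is at least 6 mismatches from every other of the 9.

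The hairpins sit in several small clusters in the rat genome (GRCr8). On chromosome 17 the guide strands of let-7a-1, let-7f-1 and let-7d start within 2128 bases of each other on the plus strand, and the passengers lie at chr17:16320196-16320217, chr17:16320564-16320584 and chr17:16322327-16322348. The table lists the let-7f-1 strand under Mirlet7f-1os, the plus-strand entry that overlaps Mirlet7f-1 on the minus strand. On chromosome 7, let-7c-2-3p (chr7:118683684-118683705) and let-7b-3p (chr7:118684098-118684119) come from plus-strand hairpins whose guides start 408 bases apart, and on chromosome X let-7f-2-3p (chrX:24460102-24460122) and miR-98-3p (chrX:24460721-24460741) come from plus-strand hairpins whose guides start 611 bases apart. The let-7e strand (chr1:67350288-67350309, plus) lies in a hairpin whose guide starts 173 bases after that of Mir99b, and on chromosome 11 the guide of Mirlet7c1 starts 686 bases after that of Mir99a. The let-7i strand is at chr7:60527879-60527900 on the minus strand.

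let-7d-3p was the most abundant passenger in every library. Its level was 555, 497 and 629 RPM in control replicates 1 to 3 and 505, 642 and 705 RPM in BDNF replicates 1 to 3, from 5796 to 8388 reads. Replicate 3 was the highest of both groups on this scale, and the groups overlapped. It made up 55.0% to 65.1% of all passenger reads once the reads of identical strands were counted once.

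let-7a-1-3p came next, with 223, 166 and 127 RPM in control and 199, 268 and 194 RPM in BDNF samples (1315 to 3024 reads). The row of let-7c-2-3p, with the identical sequence, lay within a few reads of it. let-7f-2-3p followed at 99.1, 78.9 and 64.5 RPM in control and 92.2, 107 and 76.7 RPM in BDNF samples. In both rows control replicate 3 was the lowest of the 6 libraries, and BDNF replicate 2 the highest, with the groups overlapping.

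Further down, let-7e-3p averaged 38.0 ± 6.57 RPM, let-7b-3p 35.5 ± 5.06 RPM and let-7c-1-3p 30.5 ± 7.75 RPM (SD, n = 6). Neighbours in this order did not differ beyond their spread, as their ranges overlapped and the order of the means held in only 4 of 6 libraries for let-7e-3p over let-7b-3p and in 5 of 6 for let-7b-3p over let-7c-1-3p. let-7e-3p was above let-7c-1-3p in each of the 6 libraries, although their ranges overlapped. let-7i-3p was lower, at 15.3 to 21.3 RPM, with no library in the range of let-7c-1-3p.

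miR-98-3p and let-7f-1-3p were the scarcest. For miR-98-3p the level was 12.1, 11.7 and 6.75 RPM in control and 11.98, 14.4 and 9.49 RPM in BDNF samples, from 70 to 162 reads. let-7f-1-3p had 54, 85 and 60 reads in control and 61, 75 and 77 reads in BDNF samples, or 6.01 ± 0.720 RPM (SD, n = 6). Its range overlapped with that of miR-98-3p, although miR-98-3p was higher in each of the 6 libraries. The means of the 10 strands thus spanned 97.9-fold. Of 2 further let-7 passengers outside the named 10, let-7a-2-3p had 25 to 34 reads and let-7g-3p 9 to 29 reads per library.

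**Figure D1:**
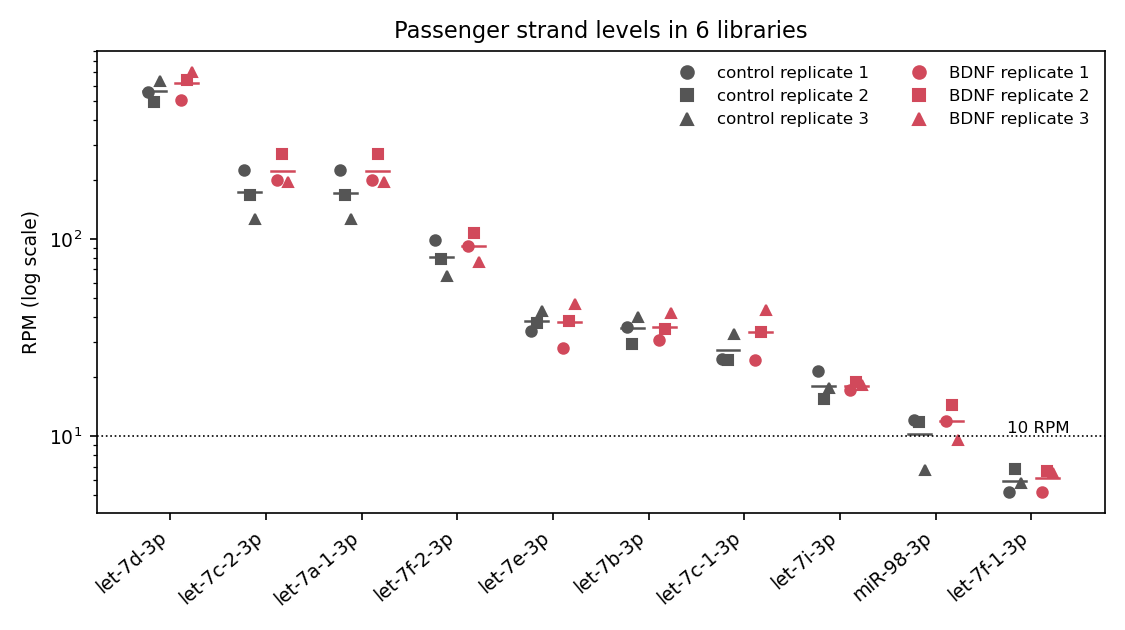
Level of each passenger strand in RPM on a log axis, ordered by mean, with 1 point per library (grey for control, red for BDNF, symbol for the replicate number), a bar at each group's mean and a dotted line at the 10 RPM needed for testing. let-7d-3p sits at 497 to 705 RPM, the paired let-7c-2-3p and let-7a-1-3p columns look the same, and let-7f-1-3p lies below the line in all 6 libraries.

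The let-7a-1-3p and let-7c-2-3p rows held nearly equal counts in every library. In control replicates 1 to 3 the counts were 2323, 2085 and 1315 for let-7a-1-3p against 2335, 2088 and 1314 for let-7c-2-3p. In BDNF replicates 1 to 3 they were 2322, 3024 and 2313 against 2324, 3030 and 2314. The rows thus differed by 1 to 12 reads, at most 0.517% of the let-7a-1-3p count. Among the 361 miRNAs with at least 50 reads in every library, no other pair stayed within 1% of each other in all 6. Below that depth, miR-3084a-3p and miR-3084d, the only other listed pair found with identical sequences, held equal counts in every library (10 to 30 reads).

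The mature sequence is the same for both hairpins, so a read can tell them apart only where it runs past the ends of the strand. With the mature strand in lower case and the 4 hairpin bases that follow it in capitals, the 3′ ends are as below.
let-7a-1 hairpin: cuauacaaucuacugucuuuccUAAG
let-7c-2 hairpin: cuauacaaucuacugucuuuccUGAA
The first base after the strand is the same in both hairpins, and the last 3 before it are also the same. The level of either locus alone is therefore not known from these counts, and the few reads by which the rows differ were not traced here. In what follows these rows are 1 measurement of both loci together, and counts of 10 rows hold it 2 times.

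Strands of 1 cluster were not equally abundant. On chromosome 17, let-7d-3p exceeded let-7f-1-3p by 98.6 ± 13.7 fold in reads (SD, n = 6), with a range of 73.2 to 109. On chromosome X, let-7f-2-3p exceeded miR-98-3p by 7.95 ± 0.945 fold, with 6.73 to 9.56 fold over the 6 libraries. Both f passengers, which share the guide let-7f-5p, stood 11.2 to 19.1 fold apart. On chromosome 7 the ratio of let-7c-2-3p to let-7b-3p moved from 3.14 in control replicate 3 to 7.69 in BDNF replicate 2, and its numerator holds the reads shared with let-7a-1-3p. The ratio of let-7a-1-3p to let-7f-2-3p, strands from different chromosomes that differ at 1 base, was steadier, at 2.25 ± 0.225.

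Set against their guides, the passengers were rare with the exception of let-7d-3p. The 8 guides (let-7a-5p to let-7f-5p, let-7i-5p and miR-98-5p) took 15.3% to 18.8% of all miRNA reads, and passengers made up 0.483% to 0.742% of the reads of both arms, with identical strands counted once. The passenger share of let-7d, reads of let-7d-3p over the sum of let-7d-3p and let-7d-5p, was 17.3%, 11.1% and 12.96% in control and 13.7%, 14.3% and 15.9% in BDNF replicates 1 to 3. Control replicate 1 had the highest share and control replicate 2 the lowest, with the BDNF samples between them.

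For the other hairpins the share stayed under 2%. That of let-7e-3p was 0.852% to 1.60%, that of miR-98-3p 0.580% to 1.00% and that of let-7b-3p 0.190% to 0.331%. Among the named strands whose guide comes from no other hairpin, the lowest was let-7i-3p, at 0.0415% to 0.0543%, or 1840 to 2408 guide reads for each passenger read. The libraries of 1 strand varied by less than these steps between let-7d-3p, let-7e-3p, let-7b-3p and let-7i-3p.

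Hairpins that share a guide have no share of their own in these counts, since let-7a-5p, let-7c-5p and let-7f-5p each come from more than 1 hairpin. Against the whole of its guide, let-7a-1-3p reached 0.810% to 1.63% and let-7c-2-3p 0.173% to 0.519%, both with the shared reads in full, so that these values bound the share of neither locus. let-7c-1-3p reached 0.0393% to 0.0839%, let-7f-2-3p 0.182% to 0.264% and let-7f-1-3p 0.0109% to 0.0223%. With both copies of a letter summed, the share was 0.217% to 0.584% for c, again with the shared reads in full, and 0.198% to 0.286% for f. With a and c pooled and identical reads counted once, it was 0.183% to 0.448%.

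**Figure D2:**
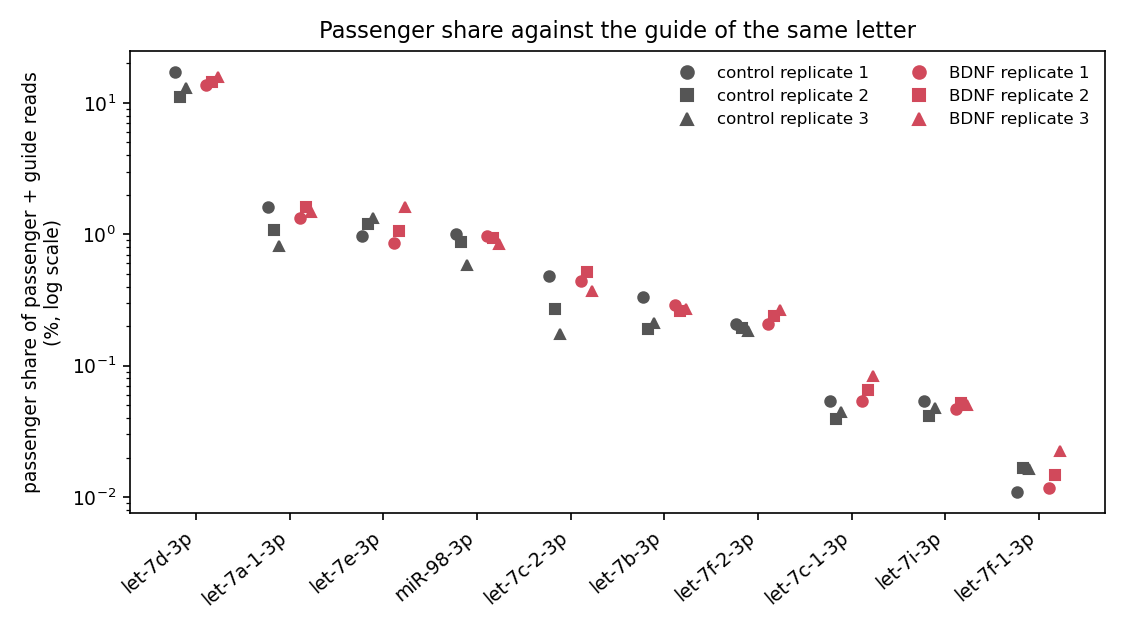
Passenger reads as a percentage of passenger plus guide reads of the same letter, on a log axis, for each of the 6 libraries (grey for control, red for BDNF, symbol for the replicate number). The let-7d-3p column, at 11.1% to 17.3%, stands above every other, none of which reaches 2%.

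Among all precursors the let-7 passengers were on the low side. With at least 10 RPM over both arms, 206 precursors had both listed, and in 112 of them the 5p strand was the more abundant, all 10 of this group included. The median 3p share of those 112 was 3.03%, with quartiles at 0.258% and 14.6%. let-7d-3p stood near the upper quartile, as 29 precursors outside the family had a higher share. The other 9 were below the median, and 4 of them, let-7c-1-3p, let-7f-1-3p, let-7f-2-3p and let-7i-3p, below the lower quartile. Of these 4, let-7i-3p alone has a guide that no other hairpin gives.

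**Figure D3:**
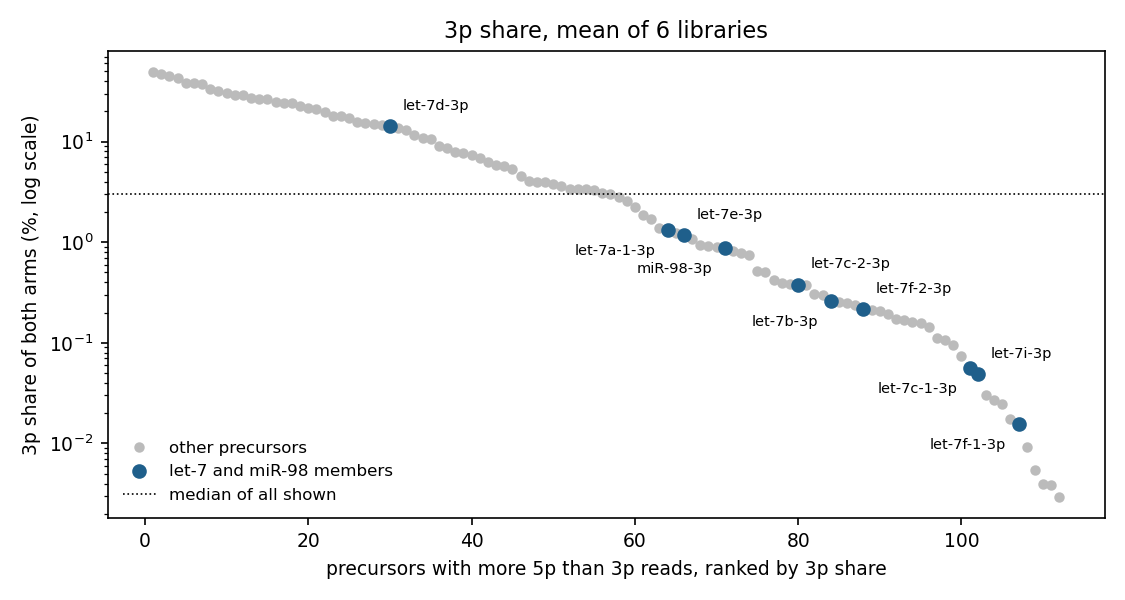
The 3p share of both arms, in percent on a log axis and averaged over 6 libraries. Shown are the 112 precursors with more 5p than 3p reads, ranked from high to low. The 10 strands of this group are blue and named, while let-7a-2-3p (rank 106) and let-7g-3p (rank 111) are among the grey points. let-7d-3p is at rank 30, and the other 9 lie below the dotted line at the median of 3.03%.

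The comparison of BDNF with control samples asked whether a short stimulation changes mature miRNA levels. At the level of the group, passengers were higher in the BDNF samples in replicates 2 and 3 and not in replicate 1. The 10 rows summed to 1242, 1083 and 1012 normalized RPM in control and 1198, 1477 and 1232 normalized RPM in BDNF replicates 1 to 3. Control replicate 1 was above BDNF replicates 1 and 3, so the groups overlapped. On the log2 scale the BDNF to control ratio of the sum was -0.05, 0.45 and 0.28 in pairs 1 to 3, and 0.23 for the ratio of the group means, which fell to 0.13 without BDNF replicate 2. Counting the identical strands once gave sums of 1017, 908 and 894 against 984, 1200 and 1053 normalized RPM and a log2 ratio of means of 0.20.

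edgeR was fitted across the 336 miRNAs whose mean reached 10 RPM in at least 1 group, which took in 9 of the 10 strands, all but let-7f-1-3p. On the log2 scale the change was 0.38 (SE 0.26) for let-7a-1-3p and 0.38 (SE 0.27) for let-7c-2-3p, from the same reads. It was 0.33 (SE 0.19) for let-7c-1-3p, 0.25 (SE 0.31) for miR-98-3p, 0.21 (SE 0.24) for let-7f-2-3p and 0.16 (SE 0.11) for let-7d-3p. let-7b-3p at 0.05 (SE 0.13), let-7i-3p at 0.02 (SE 0.16) and let-7e-3p at -0.00 (SE 0.17) were nearest to no difference. The median of the 9 was 0.21, beside -0.00 over all 336. It fell to 0.08 without BDNF replicate 2 and to 0.12 without control replicate 3.

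None of the 9 had an unadjusted p below 0.05, where 2.98% of all tested miRNAs (10 of 336) did, and no miRNA passed after Benjamini-Hochberg adjustment. DESeq2 also gave 0 of 9 unadjusted, with 12 miRNAs in all. In each of the 9 strands the BDNF samples overlapped with the control samples, while 3.57% of the tested miRNAs had all BDNF samples above and 3.57% all below the control samples. With the replicate number as a block in edgeR, 3 of the 9 rows had an unadjusted p below 0.05, namely let-7a-1-3p and let-7c-2-3p, which are 1 measurement, and let-7c-1-3p, where 20.5% of all tested miRNAs (69 of 336) did. No miRNA passed the adjusted threshold with the block either. As the strands were picked with these ratios known, nothing is read from these counts.

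The block left the sizes of the differences nearly as they were and narrowed their errors. Under it the log2 change was 0.40 (SE 0.14) for let-7a-1-3p, 0.32 (SE 0.10) for let-7c-1-3p, 0.27 (SE 0.12) for miR-98-3p, 0.22 (SE 0.10) for let-7f-2-3p and 0.15 (SE 0.08) for let-7d-3p. The deviations from the group means of equally numbered samples went together across miRNAs (correlations of 0.805, 0.484 and 0.887 for replicates 1, 2 and 3 over 336 miRNAs), which is why the ratios below are given by number.

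The ratios seen in the sum held in sign for most single strands. In pair 1 only 3 of the 10 rows were higher in the BDNF sample, let-7c-1-3p, miR-98-3p and let-7f-1-3p, beside 47.3% of all tested miRNAs. In pair 2 all but let-7f-1-3p were higher (background 44.9%), and in pair 3 all 10 were (background 46.7%). Being lower in pair 1 and higher in pairs 2 and 3 was the course of 7 of the 9 tested rows and of 17% of all tested miRNAs. The count for pair 1 depended on the scale, with 1 of 10 by plain RPM (background 21.7%), 3 of 10 with DESeq2 size factors (43.2%) and 5 of 10 with upper-quartile scaling (63.4%). The 9 of 10 for pair 2 held on these 3 scales, with backgrounds of 50.3%, 50.9% and 53.3%, and so did the 10 of 10 for pair 3, with 48.2%, 50.3% and 48.2%.

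let-7a-1-3p, with the shared reads, had the highest log2 ratios of pairs 2 and 3. Its normalized RPM was 224, 174 and 117 in control and 214, 276 and 179 in BDNF replicates 1 to 3, or log2 ratios of -0.06, 0.66 and 0.61. let-7c-1-3p, from chromosome 11, had log2 ratios of 0.08, 0.45 and 0.41, at 24.8, 25.4 and 30.3 normalized RPM in control against 26.1, 34.7 and 40.2 in BDNF replicates. For let-7c-1-3p control replicate 3 was above BDNF replicate 1, which is where its groups overlap.

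let-7d-3p moved by less than these. Its 559, 520.5 and 582 normalized RPM in control replicates stood against 544, 661 and 650 in BDNF replicates, so that 2 of 3 BDNF samples were above and 1 within the control range. The log2 ratios were -0.04, 0.35 and 0.16. For let-7e-3p they were -0.18, 0.02 and 0.12, and for let-7i-3p -0.22, 0.28 and 0.04.

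The guides of the same hairpins stood differently in pair 3. Where all 10 passengers were higher in the BDNF sample, 0 of the 8 guides were, and their median log2 ratio was -0.23 beside 0.20 for the passengers. In pair 1, 6 of the 8 guides were higher (3 by plain RPM and 8 with upper-quartile scaling) and in pair 2, 4 of 8, and the shares over all tested miRNAs were the 47.3%, 44.9% and 46.7% given above for pairs 1, 2 and 3. The 4 of 8 and 0 of 8 for pairs 2 and 3 held on the other scales. The summed guides went from 165732, 187041 and 173953 normalized RPM in control to 170304, 176763 and 140755 in BDNF replicates. In edgeR none of the 8 guides had an unadjusted p below 0.05 (background 2.98%) and none an adjusted one, with log2 changes from -0.26 for let-7c-5p to 0.09 for miR-98-5p. With the replicate block 1 of 8, let-7c-5p, had an unadjusted p below 0.05 (background 20.5%).

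**Figure D4:**
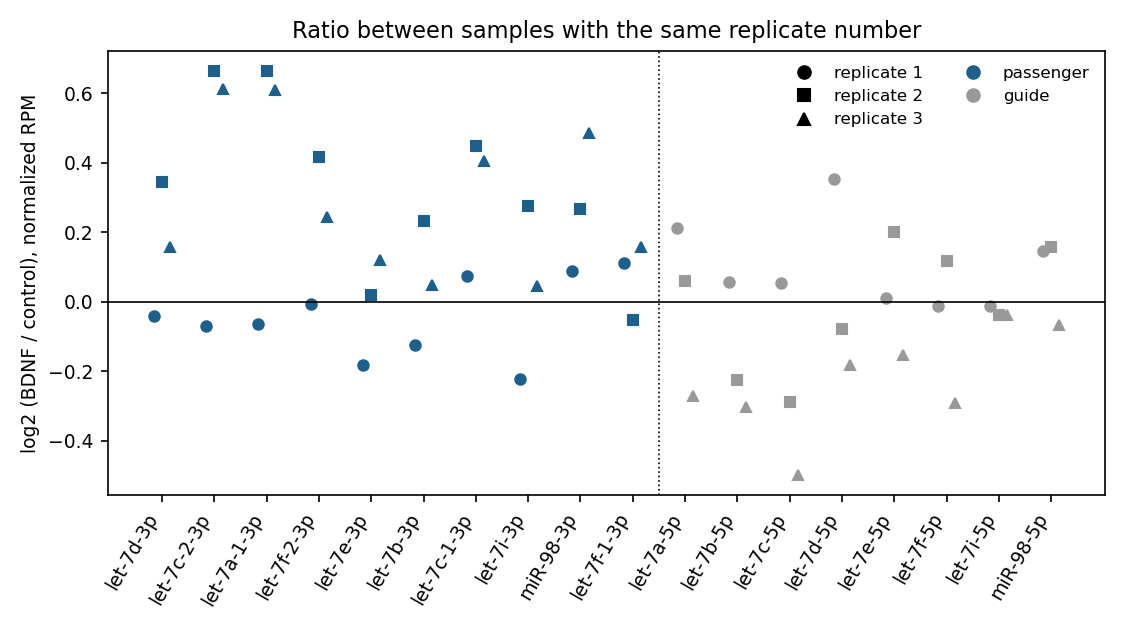
Log2 ratio of normalized RPM, BDNF over control, between samples of the same replicate number (circle, square and triangle for replicates 1, 2 and 3), for the 10 passengers in blue and the 8 guides in grey. All 10 blue triangles lie above 0 and all 8 grey triangles below it, while most blue circles lie at or below 0.

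The ratio of the 2 arms was also fitted in limma, over the 103 precursors with both arms past the filter. let-7c-1-3p against let-7c-5p had a log2 change of 0.55 (SE 0.21), the only 1 of the 9 fitted ratios with an unadjusted p below 0.05, where 3.88% of all ratios (4 of 103) had one. The largest value was that of let-7c-2-3p, 0.65 (SE 0.34), followed after let-7c-1-3p by let-7a-1-3p at 0.40 (SE 0.24) and let-7f-2-3p at 0.28 (SE 0.15). let-7d-3p stood at 0.12 (SE 0.19) and let-7e-3p at -0.03 (SE 0.26). Leaving out 1 sample at a time moved let-7d-3p between -0.04 (without control replicate 2) and 0.33 (without control replicate 1). The median of the 9 was 0.21, beside 0.05 over all 103. With the replicate block let-7c-1-3p and let-7c-2-3p had an unadjusted p below 0.05, where 15.5% of all ratios did, and no ratio passed the adjusted threshold in either fit. Both c ratios share the denominator let-7c-5p. Those of let-7c-2-3p and let-7a-1-3p set the same reads over different guides, so neither is the ratio of 1 hairpin. The ratios of the named strands were chosen with these values in view.

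**Figure D5:**
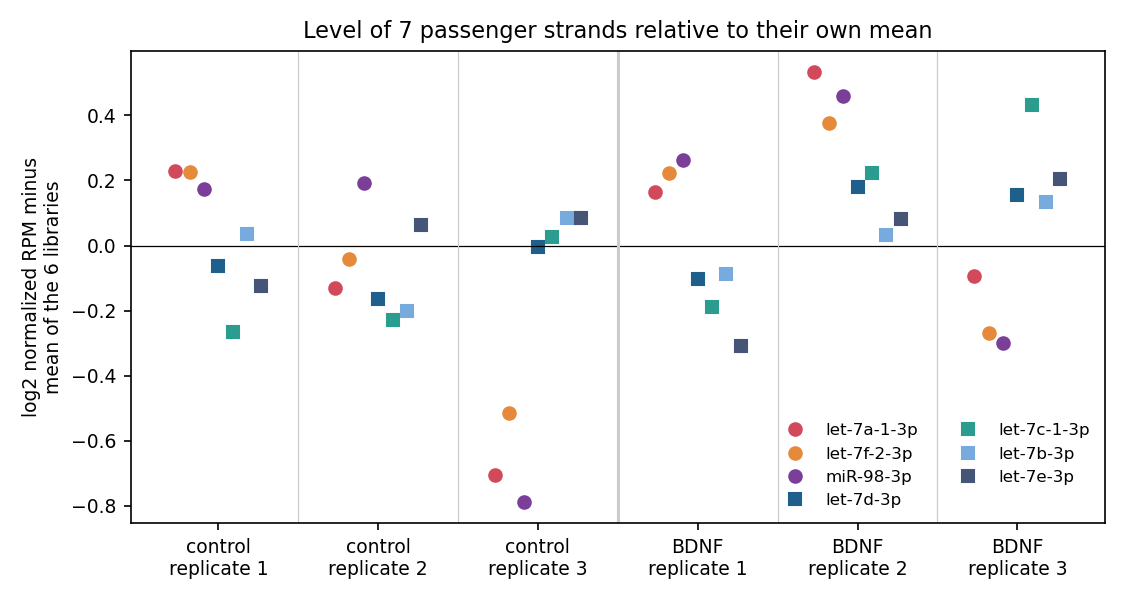
Log2 normalized RPM of 7 passenger strands in each library, minus the strand's own mean over the 6 libraries; circles are let-7a-1-3p, let-7f-2-3p and miR-98-3p, squares the others. In replicate 3 of both groups the 3 circles lie below 0, and in control replicate 3 they are the lowest points, while let-7b-3p, let-7c-1-3p and let-7e-3p lie above 0 there.

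Across the libraries the strands followed more than 1 course. let-7a-1-3p, let-7f-2-3p and miR-98-3p had their lowest normalized level in replicate 3 of both groups. For let-7f-2-3p these levels were 59.7 against 99.7 and 82.7 normalized RPM among the controls, and 70.7 against 99.4 and 110.5 among the BDNF samples. let-7b-3p, let-7c-1-3p and let-7e-3p had their highest level in replicate 3 of both groups. Among the guides, let-7e-5p, let-7f-5p, let-7i-5p and miR-98-5p were also lowest in replicate 3 of both groups, and let-7b-5p was highest there. Within groups the coefficient of variation of normalized RPM ran from 5.64% (let-7d-3p) to 33.8% (miR-98-3p) over the 9 tested strands in control samples, with a median of 17.2% beside 13.4% over all tested miRNAs. In BDNF samples the medians were 21.1% and 11.9%.

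The miRNAs whose course was most like that of let-7d-3p came from other families with 1 exception. By the mean absolute difference of centred log2 normalized RPM over the 6 samples, miR-328a-3p was nearest (0.0501), followed by miR-504 (0.0557), miR-134-5p (0.0654), miR-760-3p (0.0674) and let-7b-3p (0.0675), where the median over the 335 miRNAs compared was 0.194. Its own guide let-7d-5p stood at 0.193. Likeness to the guide differed among the strands, from 0.101 for let-7i-3p to 0.475 for let-7c-2-3p.

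The other miRNAs of the let-7 type clusters, both arms of miR-99a, miR-99b, miR-100, miR-125a and miR-125b as listed, gave a background from the same or related loci. Of these 11, none had an unadjusted p below 0.05 in edgeR (background 2.98%) or an adjusted one, and the log2 changes ran from -0.20 to 0.20. Of the changes 10 were above 0 and 1 below, with a median of 0.06 beside -0.00 over all 336 tested miRNAs. By the mean of the 3 pair ratios, 48.8% of all tested miRNAs were above 0. With the replicate block 2 had an unadjusted p below 0.05, miR-125a-5p and miR-125b-1-3p (background 20.5%).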

How the data were processed

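NEBNext small RNA libraries from 3 control and 3 BDNF samples were sequenced in 1 lane. The authors trimmed adapters, removed reads under 15 nt and assigned the rest to mature miRNAs of miRBase 21 with Miraligner, which allowed 1 mismatch, 3 nt of trimming at either end and 3 nt of addition at the 3′ end. How reads that match several miRNAs were treated is not given in the sources used here. The deposited values are raw counts per mature miRNA and sample.

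From these counts RPM was computed on column totals, and miRNAs whose mean reached 10 RPM in either condition (336 of 649) were tested with edgeR 4.0.16 (R 4.3.3; TMM, quasi-likelihood, all 6 samples), with Benjamini-Hochberg adjustment. The log2 ratio of 3p to 5p counts, each with 0.5 added, was fitted in limma 3.58.1. The edgeR and limma fits without the replicate block were tested on simulated data with independent samples. The fits with the block and DESeq2 were not. Equally numbered samples deviated together in all 3 pairs (correlations above 0.1), so the replicate block is given where it changed a count. Alternatives included other scalings, other filters, DESeq2 1.42.0 and leaving out each sample. Libraries of 1 group differed far beyond sampling noise (chi-square per degree of freedom of at least 147). That measure allows for counting error only. No molecular identifiers are described, so copied reads could not be removed from the counts. Named strands were all 10, their 8 guides, other listed let-7 strands, the cluster partners and the 5 miRNAs nearest in course to the most abundant passenger. The strands and lists were chosen with earlier results of these data known.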

Additional observations from a re-analysis of the deposited data

How the results depend on the processing

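Counts of unadjusted p below 0.05 moved with the settings. In edgeR the 10 of 336 became 69 with the replicate block, 6 with total counts only, and 3 to 32 when each sample was left out, with 32, 3 and 6 without control replicate 1, 2 or 3 and 5 without BDNF replicate 2. For arm ratios the 4 of 103 became 16 with the replicate block, 7 with a filter of 1 RPM, and 1 to 14 with a sample left out (14, 2 and 1 without control replicate 1, 2 or 3 and 1 without BDNF replicate 2). Fits with a sample left out hold fewer samples, and the cause of these changes was not tested. No miRNA or ratio passed the adjusted threshold under any of these. Of the miRNAs typical of neurons, miR-138-5p had an unadjusted p of 0.124 in edgeR and 0.00456 with the replicate block (background 20.5%). Without BDNF replicate 1, let-7c-1-3p alone of the 9 strands had an unadjusted p below 0.05 in edgeR, where 11 of 337 tested miRNAs did.

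The log2 changes of the 9 strands moved by less than 1 SD, the spread of single libraries within groups, in all 71 values under other settings. The same held in all 54 values with a sample left out. Dropping 1 of 3 samples can hardly move a group mean that far, so nothing is read from the 54. Leaving out a sample gave 0.17 to 0.64 for let-7a-1-3p and 0.04 to 0.42 for let-7f-2-3p. The median of the 9 ran from 0.08 to 0.30. Of the 71 and 54 values, 6 and 9 had the other sign, in let-7b-3p, let-7e-3p, let-7i-3p and, without control replicate 3, miR-98-3p (-0.00). The log2 change of the summed level was 0.20 to 0.24 under other settings and 0.13 to 0.31 with a sample left out. For the arm ratios the SD used was that of the passenger's level, not of the ratio. By it 3 strands moved by over 1 SD when a sample was left out. Their log2 changes ran over -0.04 to 0.33 for let-7d-3p, -0.29 to 0.17 for let-7e-3p and 0.05 to 0.45 for let-7b-3p. let-7c-2-3p did not count as moved, although its ratio ran over 0.29 to 1.04. The changes of let-7i-3p and miR-98-3p also took both signs. Summing the copies of a letter raised the passenger share from 0.0155% for let-7f-1-3p to 0.231% for f and from 0.0568% for let-7c-1-3p to 0.433% for c. The c sum holds the reads shared with let-7a-1-3p. With a and c pooled and identical reads counted once, the share was 0.341%. Counting the identical rows once lowered the control sum from 1112 to 940 normalized RPM. Counting them again raised the pooled control passenger share from 0.532% to 0.629%, an alternative chosen after seeing the data, and it was 0.494% to 0.558% with a control sample left out. Depth limits let-7f-1-3p, at 54 to 85 reads.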
